A study of Arabidopsis thaliana with 24 samples.

Results

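SBE2.2 and DPE1 are 2 nuclear genes of starch metabolism in Arabidopsis thaliana. The annotation of the Affymetrix ATH1 array names each of them on a single probe set, out of 22810 probe sets in the deposited table. They were chosen with earlier results of these data known. SBE2.2 (locus AT5G03650, probe set 250906_at) encodes a starch branching enzyme, and DPE1 (locus AT5G64860, probe set 247216_at) encodes the disproportionating enzyme of the plastid. Their levels were followed over 24 arrays of laser-captured stem cells, 3 biological replicates in each of 8 groups, and all plants were wild type.

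The groups differ in tissue, medium and time. The starch sheath, the innermost cortical layer and the place from which the interfascicular cambium is induced, was captured from stems with no treatment, from stem pieces kept on MS medium alone for 2 and for 5 days, and from pieces kept for 2 days on medium with the auxin NAA. By day 5 on NAA the interfascicular cambium had formed, and it was captured in place of the sheath. Stem tissue free of starch sheath and vascular bundles, here the surrounding stem, was taken from untreated stems and from pieces exposed to NAA for 2 or 5 days. Surrounding stem on medium alone was not analysed here, and the sources used here do not give how many plants stand behind a replicate. The study looked for genes that rise in the interfascicular region while auxin sets up a cambium there.

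Starch is built in plastids from ADP-glucose. Starch synthases lengthen glucan chains, branching enzymes such as SBE2.2 cut a chain and rejoin it as a side branch, and debranching enzymes trim the result, so that a crystalline granule forms. When starch is broken down, dikinases put phosphate on the granule surface, beta-amylases release maltose, and DPE1 recycles the short leftover maltotriose by moving glucan units between chains. In the shoot the starch sheath carries starch-filled plastids that settle with gravity and take part in sensing it, and SBE2.2 shares its work in leaves with a close relative, SBE2.1. No sequence of either gene is shown here, as none was held in the sources used here.

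All values below are log2 expression values as deposited. A level of 3.09 is the median of all values in the table, no detection call was used, and a level near or under that median is not known to lie above background. The spread over probe sets was narrow on 3 untreated arrays, with an SD of 0.96 to 1.08 against 1.22 to 1.57 on the other 21. Those 3 are replicates 2 and 3 of the untreated starch sheath and replicate 3 of the untreated surrounding stem. The excess of the 3' over the 5' signal of the GAPDH control was 3.93 to 4.83 in the untreated starch sheath. It was 5.52 to 6.25 in the sheath after 5 days on medium and 6.17 to 7.15 in the cambium. In the sheath at 2 days it was 6.71 to 7.43 on medium and 6.14 to 6.67 on NAA. Comparisons with the 2-day medium sheath are therefore also uneven in this excess. The stem had 4.6 to 5.5 untreated, 6.07 to 7.08 after 2 days on NAA and 6.40 to 7.29 after 5 days. Of 7 markers listed for the starch sheath, only JKD, a zinc finger gene of the ground tissue, has a probe set named for it alone. JKD lay at 3.21, 4.25 and 4.48 in the untreated starch sheath and at 2.80 to 3.12 in the untreated stem. The 2 higher sheath values and the stem value of 3.12 come from the narrow arrays. The ranges did not overlap, but how many of all probe sets also lacked overlap was not counted. The difference did not pass the test (log2 change 1.00 ± 0.27 SE, adjusted p = 0.159). None of 4 listed cambium markers has a probe set named for it alone in the annotation, so the cambium label was not checked.

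SBE2.2 was highest in the starch sheath kept for 5 days without auxin. Its 3 arrays there read 5.73, 5.82 and 5.47 (mean 5.67 ± 0.18 SD, n = 3), and even the lowest of them stood above 20 of the 21 arrays of the other groups. The exception was the starch sheath after 2 days on medium, where replicate 1 read 6.40 while replicates 2 and 3 read 4.39 and 4.53. After 2 days on NAA the starch sheath read 4.51, 4.52 and 5.33, and replicate 3 stood above the other two.

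The surrounding stem held an intermediate SBE2.2 level before culture and after 2 days on NAA. It read 4.65, 4.57 and 3.77 when untreated, and 4.47, 4.35 and 4.40 after 2 days, the tightest group of all for this gene. After 5 days on NAA the stem read 3.55, 3.13 and 3.54. The cambium at this stage read 3.79, 4.27 and 2.72, a wide spread whose lowest array lies under the median of all values. The untreated starch sheath read 4.24, 3.26 and 3.16, and its 2 lower values come from the narrow arrays. Ordered by mean, the groups ran from 5.67 (sheath, 5 days medium) through 5.11 (sheath, 2 days medium), 4.79 (sheath, 2 days NAA), 4.41 (stem, 2 days NAA), 4.33 (untreated stem), 3.59 (cambium) and 3.55 (untreated sheath) to 3.41 (stem, 5 days NAA). Neighbours in this order had overlapping arrays, except that the sheath lay above the stem at 2 days on NAA by a gap of 0.38 between means.

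DPE1 was also highest in the starch sheath after 5 days on medium alone. It read 4.14, 5.30 and 5.30 there (mean 4.91 ± 0.67 SD, n = 3), and the lowest of these stood above 17 of the 21 arrays of other groups. After 2 days on medium the sheath read 3.89, 3.97 and 3.76, all under the 5-day arrays. On NAA for 2 days it read 3.67, 4.12 and 5.36, and replicate 3 was again the high array, as it was for SBE2.2.

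The lowest DPE1 values lay in the untreated starch sheath and in the stem after 5 days on NAA. The untreated sheath read 3.48, 3.58 and 2.82, and the stem after 5 days read 3.10, 3.20 and 3.36. The cambium read 3.94, 4.23 and 3.11. The untreated stem read 4.80, 3.36 and 3.19, so that 1 array set its mean, and the stem after 2 days on NAA read 3.94, 4.02 and 4.53. The group means ran from 4.91 (sheath, 5 days medium) through 4.38 (sheath, 2 days NAA), 4.16 (stem, 2 days NAA), 3.87 (sheath, 2 days medium), 3.78 (untreated stem), 3.76 (cambium) and 3.29 (untreated sheath) to 3.22 (stem, 5 days NAA), and every pair of neighbours overlapped. The 2 genes therefore had the same group at the top of the order and the same pair of groups at its foot.

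**Figure D1:**
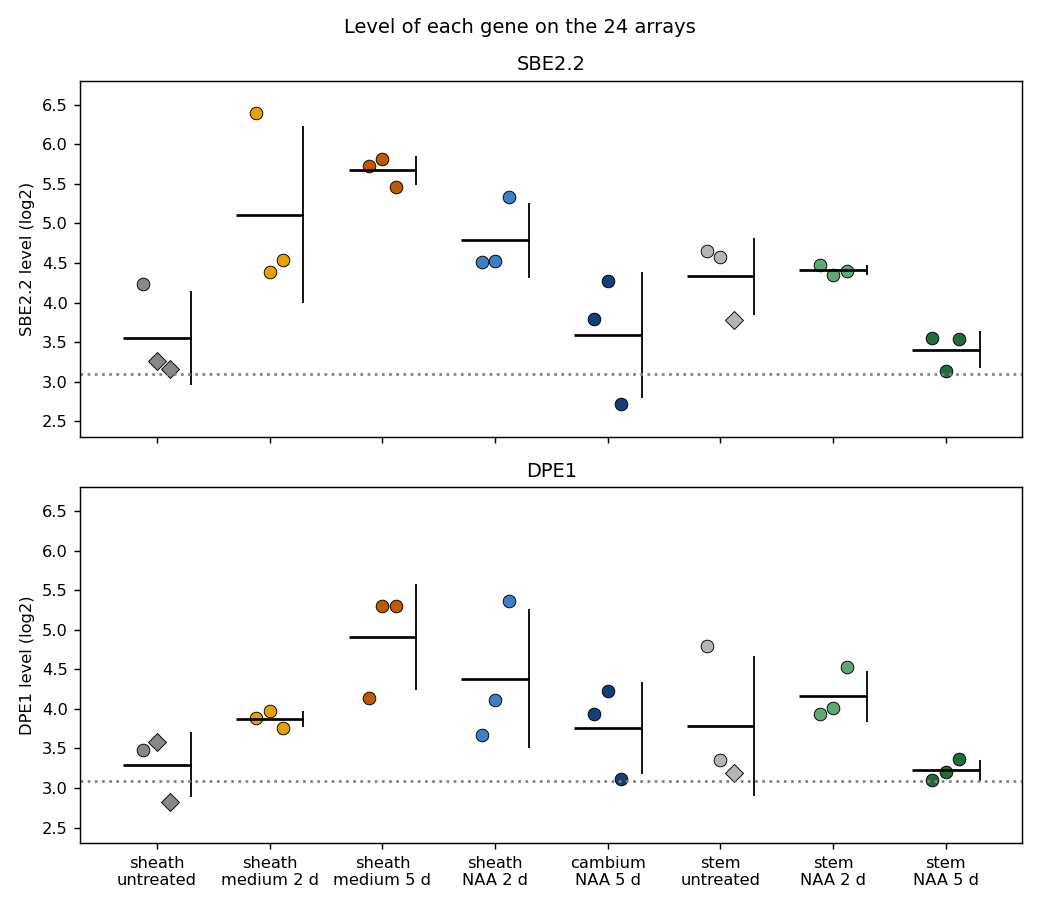
Log2 level of SBE2.2 (upper panel) and DPE1 (lower panel) on each array, by group. Points are arrays, diamonds the 3 arrays with a narrow spread of values, horizontal bars group means, vertical bars 1 SD (n = 3), and the dotted line the median of all values, 3.09. The sheath after 5 days on medium has the highest mean for both genes, 5.67 and 4.91.

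In the starch sheath both genes rose over 5 days on medium without auxin. SBE2.2 rose 4.34-fold over the untreated sheath (log2 change 2.12 ± 0.45 SE, 95% interval 1.17 to 3.07, adjusted p = 0.00924) and DPE1 rose 3.07-fold (1.62 ± 0.44, 0.69 to 2.54, adjusted p = 0.0354). Untreated levels of SBE2.2 on 2 arrays (3.16 and 3.26) and of DPE1 on 1 (2.82) lie near or under the median of all values, so these are folds between fitted levels of which the lower is not known to stand above background. The arrays of the 2 groups did not overlap for either gene, and 6.34% of all probe sets were called in this comparison, 68.1% of them higher. How many of all probe sets also lacked overlap was not counted, here or in the comparisons below. Lack of overlap therefore only describes these arrays. In bulk samples such as these, more cells of a type and more RNA per cell cannot be told apart. Of the 6 fits that left out 1 array, SBE2.2 passed in 6 and DPE1 in 2, and DPE1 reached an adjusted p of 0.0709 and 0.140 without untreated replicate 2 or 3 and 0.149 and 0.114 without medium replicate 2 or 3. Without the narrow arrays, which leaves a single untreated sheath array that is assumed to vary like the other groups, the changes were 1.43 for both genes and neither passed (adjusted p = 0.276 and 0.277). With the GAPDH excess as a covariate they were 1.57 and 0.94, again without passing (adjusted p = 0.248 and 0.497), and the share of all calls that were higher was 24.9% and 35.5% in these fits. The part of the narrow spread and of the GAPDH excess in the rise was not tested.

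The earlier steps of the culture on medium passed for neither gene. After 2 days on medium SBE2.2 differed from the untreated sheath by 1.55 ± 0.45 SE (adjusted p = 0.0541, 4.94% of probe sets called), with arrays that did not overlap. This value turns on single arrays. Without the high replicate 1 on medium the change was 0.91 (adjusted p = 0.265). Without untreated replicate 1 the change was 1.90 (adjusted p = 0.0125), with 19.2% of all probe sets called. Without the narrow arrays it was 0.87 (adjusted p = 0.552), and with the GAPDH covariate 0.51 (adjusted p = 0.785). DPE1 differed by 0.58 ± 0.44 (adjusted p = 0.492). From 2 to 5 days on medium DPE1 differed by 1.04 ± 0.44 (95% interval 0.12 to 1.96, adjusted p = 0.516) and SBE2.2 by 0.56 ± 0.45 (interval -0.39 to 1.51, adjusted p = 0.900), in a comparison that called 0.303% of probe sets.

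The comparison with medium on the same day asks what differed with auxin. At 5 days SBE2.2 was 4.23-fold lower in the cambium on NAA than in the starch sheath on medium (log2 change -2.08 ± 0.45 SE, 95% interval -3.03 to -1.13, adjusted p = 0.0121), and no cambium array reached a medium array. DPE1 lay 1.15 lower (± 0.44, interval -2.08 to -0.23) and did not pass (adjusted p = 0.215), its ranges overlapping between 4.14 and 4.23. The comparison called 3.49% of all probe sets, so SBE2.2 was 1 of 2 members called. NAA and the captured tissue differ together here and cannot be told apart. The SBE2.2 call ended without cambium replicate 3, its lowest array (adjusted p = 0.0682, change -1.64), without medium replicate 2 (0.0535) and when only these 6 arrays were fitted (0.0504). It held without the narrow arrays (adjusted p = 0.0108) and with the GAPDH covariate (-2.39, adjusted p = 0.0159).

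At 2 days, with starch sheath captured on both media, neither gene passed. SBE2.2 differed between NAA and medium by -0.32 ± 0.45 (95% interval -1.27 to 0.63, adjusted p = 0.849) and DPE1 by 0.51 ± 0.44 (interval -0.41 to 1.43, adjusted p = 0.747), with 0.382% of probe sets called. The 5-day difference from medium, in which NAA and tissue are joined, minus the 2-day difference was -1.76 ± 0.64 for SBE2.2 and -1.66 ± 0.62 for DPE1. Neither passed (adjusted p = 0.254 and 0.270, with 1.01% of probe sets called), and SBE2.2 passed once the high medium replicate 1 of day 2 was left out (-2.40, adjusted p = 0.0392).

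Along the series on NAA no step between sheath and cambium passed for either gene. After 2 days on NAA the sheath differed from the untreated sheath by 1.23 ± 0.45 for SBE2.2 and 1.09 ± 0.44 for DPE1 (adjusted p = 0.0787 and 0.102), with no overlap between arrays in a comparison that called 11.7% of probe sets. Without untreated replicate 1 the SBE2.2 change was 1.57 and passed (adjusted p = 0.0193), in a fit that called 36% of all probe sets. Without the narrow arrays the changes were 0.55 and 0.90 (adjusted p = 0.887 and 0.649), and with the GAPDH covariate 0.48 and 0.15 (adjusted p = 0.876 and 0.967). From there to the cambium at 5 days the changes were -1.19 ± 0.45 and -0.62 ± 0.44 (adjusted p = 0.240 and 0.736, 2.02% called). The cambium lay within 0.04 of the untreated sheath for SBE2.2 (95% interval -0.91 to 0.99) and 0.47 above it for DPE1 (interval -0.46 to 1.39), without passing (adjusted p = 0.965 and 0.515, 8.58% called).

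Neither gene was called between the interfascicular region and the surrounding stem at any stage. In untreated stems the sheath lay 0.78 ± 0.45 below the stem for SBE2.2 and 0.49 ± 0.44 below for DPE1 (log2 changes -0.78 and -0.49, adjusted p = 0.441 and 0.632, 0.202% of probe sets called). After 2 days on NAA the sheath stood 0.38 and 0.22 above the stem (95% intervals -0.57 to 1.33 and -0.70 to 1.15, adjusted p = 1.00 for both, 0.246% called). At 5 days the cambium stood 0.19 and 0.54 above the stem (intervals -0.76 to 1.14 and -0.39 to 1.46, adjusted p = 1.00 for both, 0.356% called). These intervals leave room for differences of over 2-fold in either gene.

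In the surrounding stem on NAA neither gene passed between any pair of times. Between 2 and 5 days SBE2.2 differed by -1.00 ± 0.45 and DPE1 by -0.94 ± 0.44 (adjusted p = 0.542 and 0.562, 0.857% called), and for both genes the 5-day arrays lay below all 2-day arrays. Fitted over these 6 arrays alone, the SBE2.2 change passed (adjusted p = 0.0315, 1.6% called). Against the untreated stem the 2-day values differed by 0.07 and 0.38 (adjusted p = 0.962 and 0.756, 3.23% called) and the 5-day values by -0.93 and -0.56 (adjusted p = 0.363 and 0.710, 4% called). The change from untreated to 2 days on NAA differed between sheath and stem by 1.16 ± 0.64 for SBE2.2 and 0.71 ± 0.62 for DPE1 (adjusted p = 0.767 and 0.812, 0.00879% called). The change to 5 days differed by 0.96 ± 0.64 and 1.03 ± 0.62 (adjusted p = 0.640 and 0.612, 0.0308% called).

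**Figure D2:**
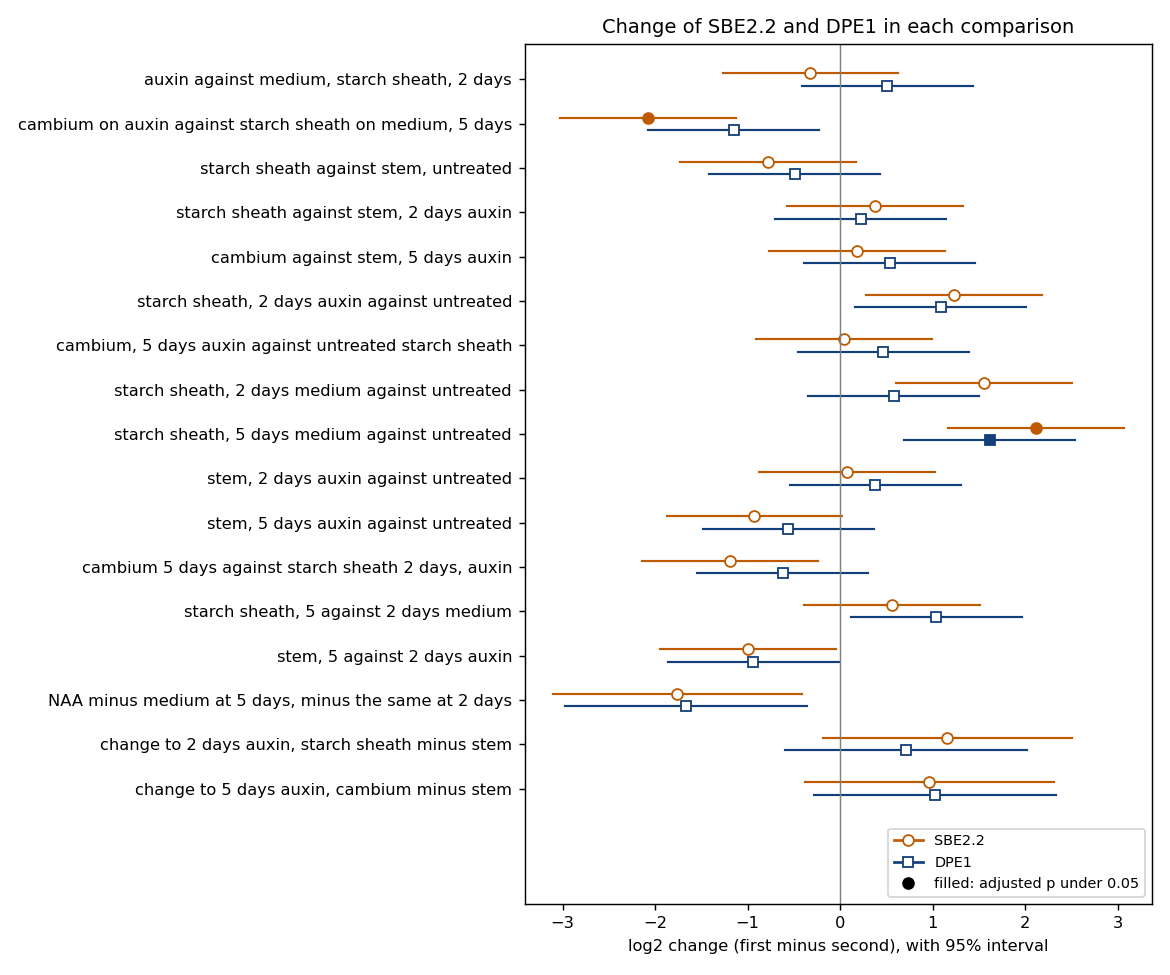
Log2 change of SBE2.2 (circles) and DPE1 (squares) in the 17 comparisons, the first group minus the second, with 95% intervals from the model fitted to all arrays. Filled symbols passed at an adjusted p under 0.05: SBE2.2 at 2.12 and DPE1 at 1.62 for 5 days on medium against untreated sheath, and SBE2.2 at -2.08 for cambium against medium.

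The 2 genes varied together over the series. Over the 24 arrays their levels correlated with a Pearson r of 0.71 and a Spearman rho of 0.71, and over the 8 group means with 0.87 and 0.93. Without the 2 arrays farthest from the SBE2.2 median, the high 2-day medium array and the low cambium array, r was 0.81 over 22 arrays. Within groups, as deviations from the group mean, r was 0.45 and rho 0.50, so arrays high for one gene tended to be high for the other. Arrays share an RNA preparation for both genes, and the SD of an array correlated with SBE2.2 at 0.46 and with DPE1 at 0.55. Without the 3 narrow arrays r was 0.67 over 21 arrays.

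Whether the genes differed in how they changed cannot be settled by a permutation of 3 arrays against 3, which cannot give a p under 0.1. In the cambium against medium at 5 days SBE2.2 changed by 0.93 more in the downward direction than DPE1 (difference of changes -0.93, two-sided exact permutation p = 0.1 on the per-array difference of the 2 genes, 0.7 after Benjamini-Hochberg adjustment over the 14 pairs of groups). With the spread pooled over the 24 arrays (16 residual degrees of freedom) its 95% interval was -1.98 to 0.13, which holds 0 and also differences near the size of the SBE2.2 change itself. After 2 days on medium SBE2.2 changed by 0.97 more than DPE1 against the untreated sheath (interval -0.08 to 2.03, exact permutation p = 0.2), and after 5 days by 0.50 more (interval -0.56 to 1.55, exact permutation p = 0.5). The 2-day value leans on replicate 1 on medium, which read 6.40 for SBE2.2 and 3.89 for DPE1. Replicates 2 and 3 read 4.39 and 4.53 for SBE2.2 and 3.97 and 3.76 for DPE1.

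**Figure D3:**
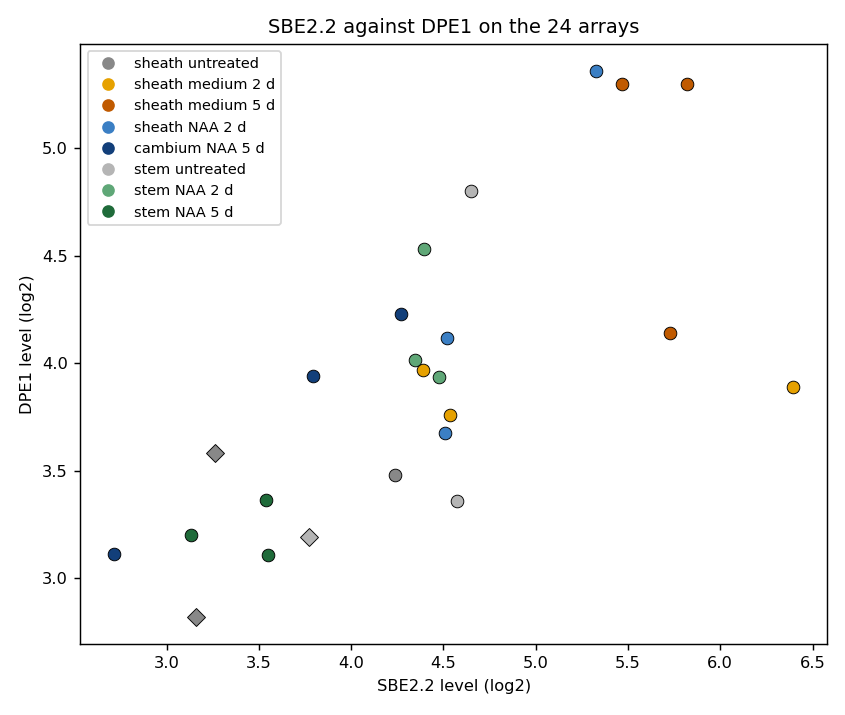
SBE2.2 level against DPE1 level on each of the 24 arrays, both on the log2 scale, coloured by group, with diamonds for the 3 narrow arrays. The 5-day medium arrays lie to the right, with SBE2.2 at 5.47 to 5.82, and the stem after 5 days on NAA at the lower left, and r over all arrays is 0.71.

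The starch pathway could be followed only in part. Of 34 listed genes of starch synthesis and degradation, 6 have a probe set named for them alone: APL3 and APL4, large subunits of the ADP-glucose pyrophosphorylase that makes the substrate of synthesis, SBE2.2, the phosphoglucan dikinase gene PWD, DPE1, and AMY1, an alpha-amylase that is secreted from the cell. After 5 days on medium 3 of the 6 were higher than in the untreated sheath (APL3, SBE2.2 and DPE1), 0 were lower and 3 did not pass, with a median change of 1.38 against -0.08 over all probe sets. Over all probe sets 4.32% were called higher, and besides the 2 members themselves 1 of the other 4 genes was. In the cambium against medium at 5 days 3 of the 6 were lower (APL3, APL4 and SBE2.2), 0 were higher and 3 did not pass, with a median of -1.14 against 0.01. Over all probe sets 1.48% were called lower, and SBE2.2 is 1 of the 3. Both medians of the 6 genes include the 2 members, which were chosen with earlier results known. The other 4 genes changed by 1.95 (APL3), 0.40 (APL4), 1.15 (PWD) and -0.35 (AMY1) on medium. In the cambium comparison they changed by -2.87, -0.52, -1.13 and 0.77.

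APL3 had the largest difference of the 6 in the cambium comparison. It read 6.16, 6.69 and 6.47 in the sheath after 5 days on medium, 4.05, 3.24 and 3.41 in the cambium, and 5.23, 3.79 and 4.44 in the untreated sheath. It was 7.33-fold lower in the cambium than on medium (log2 change -2.87 ± 0.49 SE, adjusted p = 0.00174), a call that held in 6 of 6 fits without 1 array. It rose 3.88-fold over untreated (1.95 ± 0.49, adjusted p = 0.0238), and this call was lost in 5 of 6 such fits (adjusted p up to 0.125), all but the one without untreated replicate 1. The 5-day difference between cambium on NAA and sheath on medium, minus the 2-day difference between NAA and medium, was -3.40 ± 0.69 (adjusted p = 0.0216), and APL3 was the 1 starch gene of 6 to pass there, in 8 of 12 fits without 1 array. The calls were lost without replicate 2 or 3 of the 2-day medium, cambium replicate 2 or 5-day medium replicate 2 (adjusted p up to 0.0652). APL4 lay at 2.04 to 2.92 on all arrays, under the median of all values, and its change of -0.52 (adjusted p = 0.0446) lies between levels that are not known to stand above background and was lost in 5 of 6 fits without 1 array (adjusted p up to 0.245).

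PWD and AMY1 had values of opposite sign in the cambium comparison. PWD read 5.82, 6.36 and 5.20 after 5 days on medium and 4.90, 5.11 and 3.97 in the cambium, a difference of -1.13 ± 0.55 that did not pass (adjusted p = 0.394). AMY1 read 3.04, 2.80 and 3.52 after 5 days on medium and 4.19, 3.81 and 3.66 in the cambium, higher by 0.77 ± 0.23 without passing (adjusted p = 0.0865). In the surrounding stem AMY1 rose from 2 to 5 days on NAA (1.06 ± 0.23, adjusted p = 0.0345) and lay above untreated stem at 5 days (0.85, adjusted p = 0.0471). These were the only calls of the 6 genes in the comparisons within the stem. They were lost in 4 of 6 and 5 of 6 fits without 1 array (adjusted p up to 0.207 and 0.206); the first held without 2-day replicate 2 or 5-day replicate 3, the second without 5-day replicate 3.

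The counts of starch genes depended on the untreated arrays and on the arrays fitted. With the narrow arrays left out, or with the GAPDH covariate, 0 of the 6 passed for 5 days on medium against untreated, and 1 passed (SBE2.2) when only those 6 arrays were fitted. For the cambium against medium 3 of the 6 were still lower without the narrow arrays (APL3, APL4 and SBE2.2), 3 with the covariate (APL3, SBE2.2 and PWD), and 1 (APL3) when only the compared arrays were fitted or without cambium replicate 3.

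**Figure D4:**
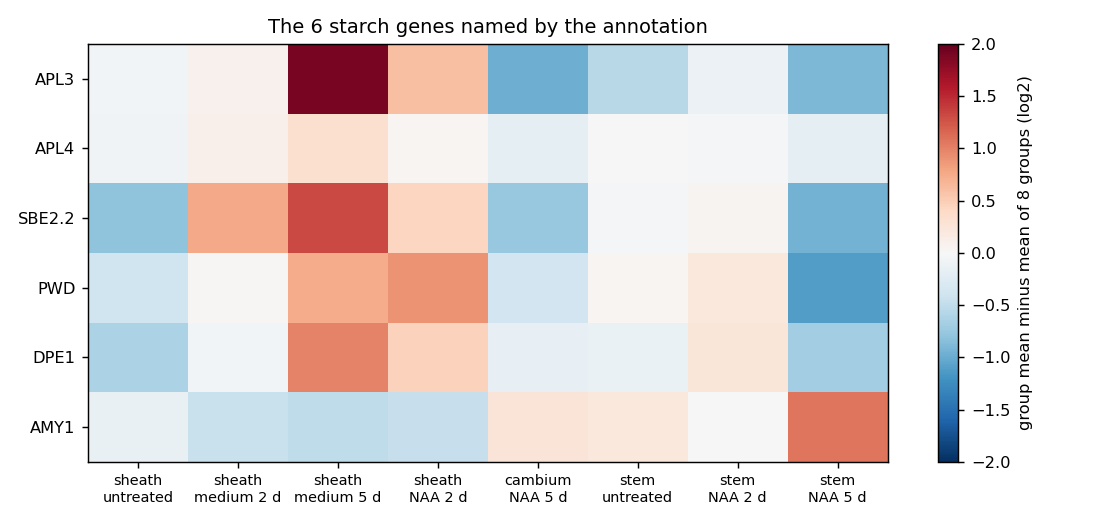
Group means of the 6 starch genes, each minus the gene's own mean over the 8 groups, on the log2 scale (red above, blue below). The sheath after 5 days on medium stands above the gene's mean for APL3 (1.90), SBE2.2 (1.31), DPE1 (0.99), PWD (0.75) and APL4 (0.32) and below it for AMY1 (-0.51).

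Markers of tissue also differed in these comparisons. RCA, the Rubisco activase gene, was the 1 of 6 genes listed for photosynthetic parenchyma with a probe set named for it alone. At 5 days it was lower in the cambium than in the sheath on medium (log2 change -2.05 ± 0.39, adjusted p = 0.00407). It read 7.69, 7.90 and 7.45 in that sheath against 6.18, 5.28 and 5.44 in the cambium. It was also lower in the surrounding stem after 5 days on NAA than in untreated stem (-1.93, adjusted p = 0.00694) and did not pass between cambium and stem at 5 days (0.00 ± 0.39, adjusted p = 1.00). Its level correlated with that of SBE2.2 at 0.75 and with that of DPE1 at 0.53 over the 24 arrays. JKD fell by 1.15 on medium at 5 days against the untreated sheath (± 0.27 SE, adjusted p = 0.0165), and its changes in the sheath after 2 days on NAA (-0.93, adjusted p = 0.0334), in the sheath after 2 days on medium (-0.94, adjusted p = 0.0505) and in the cambium (-0.89, adjusted p = 0.0467) were of like size. Without the narrow arrays, which leaves 1 untreated sheath array, the 5-day change on medium was -0.37. That array read 3.21, against 2.92 to 3.12 after 2 days on NAA and 2.79 to 3.40 in the cambium. Of 6 fits without 1 array, JKD lost its call in 4 on medium at 5 days (adjusted p up to 0.0878). It lost the call in 5 of 6 for 2 days on NAA (up to 0.171) and in 4 of 6 for the cambium (up to 0.223). For JKD the sheath lay 0.31 above the stem after 2 days on NAA (± 0.27 SE, adjusted p = 1.00). Of the markers listed for phloem (5), xylem (5) and epidermis (5), 0 have a probe set named for them alone, and the part of a changed cell makeup in the starch gene values was not tested.

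The genes whose group means ran most like those of SBE2.2 were found among 2854 probe sets with 1 named gene and a range of group means of at least 1. By Pearson r over the 8 group means the 5 most alike were AT1G73110 (0.95), CaS (0.94), AT3G15690 (0.94), AT2G35840 (0.93) and AT2G45180 (0.93). CaS, a calcium sensing protein of the chloroplast, had a mean of 7.88 in the sheath after 5 days on medium and 5.65 in the cambium. For DPE1 they were AT5G24690 (0.97), PORB (0.97), AT5G03880 (0.94), AT2G35840 (0.94) and AT5G51110 (0.94). PORB, a protochlorophyllide oxidoreductase of chlorophyll synthesis, had a mean of 8.62 in the same sheath and 7.21 in the cambium. AT2G35840 stood in both sets, while DPE1 itself was at place 33 for SBE2.2 and SBE2.2 at place 22 for DPE1. Over the 24 arrays in place of the means, 0 of the 5 genes of SBE2.2 and 1 of the 5 of DPE1 (PORB, r = 0.80) were again among the 5 most alike. The 5 of SBE2.2 then stood at places 35 to 143, and those of DPE1 at places 2 (PORB) to 239 (AT2G35840). Which genes enter these lists therefore depends on the measure.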

How the data were processed

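The deposited table holds 1 value per probe set and array. The authors' values are taken as log2 expression: they run from 1.73 to 14.67, and RMA and limma are named, per the submitters' processing notes, without versions or settings. The table itself does not state its logarithm's base. Per the labels' protocols, RNA from laser-captured sections was amplified in repeated rounds and labelled with biotin, which can favour the 3' part of transcripts. No scanner files were used here.

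Of the 22810 probe sets 64 are controls and 22746 were tested. The annotation names 1 gene for 13513 of them, several for 503 and none for 8730; 13436 matched a locus of assembly TAIR10.1. limma 3.58.1 in R 4.3.3 fitted 1 mean per group over all 24 arrays (residual degrees of freedom 16, prior 2.55), and 17 contrasts were tested two-sided, with Benjamini-Hochberg adjustment over all tested probe sets and a threshold of 0.05. The fit was tested on simulated data with independent noise of equal size on every array. Those data hold no narrow arrays and no GAPDH excess, so that test does not bear on either. The p-values weigh each difference of means against a spread between replicates that is pooled over all groups and moderated by the prior. The number of replicates limits precision.

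The members, gene lists and settings were chosen with earlier results of these data known. The named genes are the members, the measured starch and marker genes and, for each member, the 5 genes most alike in group means. In 1 of 14 pairs of groups the deviations from group means correlated at over 0.1 for every same-numbered pair of arrays. This was sheath and stem after 2 days on NAA (r 0.126 to 0.507). The labels give only the number, so whether same-numbered arrays share plants is not known.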

Additional observations from a re-analysis of the deposited data

How the results depend on the processing

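The 2 members in 17 comparisons were refitted under 9 other settings and without each compared array in turn. Values are adjusted p, with the log2 change where its sign turned; the cause of each change was not tested. SBE2.2 in the cambium against medium at 5 days passed in 8 of the 9 settings, and not with the compared groups only (0.0504). SBE2.2 after 5 days on medium against untreated failed with the GAPDH covariate (0.248) and without the narrow arrays (0.276). DPE1 in that comparison failed with the compared groups only (0.133), array weights (0.0713), the covariate (0.497) and without the narrow arrays (0.277). SBE2.2 after 2 days on medium against untreated passed with the replicate block (0.0411), quantile normalization (0.0204), array weights (0.0429), the trended robust prior (0.0422) and the dim probe sets left out (0.0369), while its change fell from 1.55 to 0.87 without the narrow arrays (0.552) and to 0.51 with the covariate (0.785). Against untreated, SBE2.2 also passed with array weights after 2 days on NAA in the sheath (0.0296) and 5 days in the stem (0.0429). Array weights called 26.6% and 13.7% of all probe sets there, against 11.7% and 4% in the main fit. With the compared groups only SBE2.2 passed from 2 to 5 days in the stem (0.0315, 1.6% called).

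Signs turned only in results that did not pass. SBE2.2 in the cambium against the untreated sheath turned with cyclic loess (-0.20, 0.822), the GAPDH covariate (-0.81, 0.668) and without the narrow arrays (-0.65, 0.729). SBE2.2 in the stem at 2 days against untreated turned with cyclic loess (-0.06, 0.969), array weights (-0.08, 0.912), the covariate (-0.47, 0.744) and without the narrow arrays (-0.21, 0.944). With the covariate DPE1 turned in the cambium against untreated (-0.60, 0.750), in the sheath after 2 days on medium (-0.72, 0.669) and in the stem after 2 days on NAA (-0.30, 0.830).

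Leaving out each array, the range for SBE2.2 was 0.0117 to 0.0682 in the cambium against medium, 0.0125 to 0.265 after 2 days on medium and 0.0193 to 0.252 after 2 days on NAA against untreated, and 0.0392 to 0.542 for the difference from medium at 5 against 2 days. Where a sign turned it was 0.726 to 1.00 for auxin against medium at 2 days, 0.985 to 1.00 for cambium against stem, 0.475 to 0.961 for cambium against untreated and 0.827 to 0.998 for stem at 2 days against untreated. For DPE1 it was 0.0202 to 0.149 after 5 days on medium, 0.329 to 0.996 for untreated sheath against stem and 0.9999 to 1.00 for sheath against stem on NAA.

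The count of starch genes passing in the main direction (lower in the cambium, higher on medium) was 3 in both 5-day comparisons, 1 in each with the compared groups only, and 0 after 5 days on medium with the covariate or without the narrow arrays. It ran from 1 to 2 in the cambium against medium and from 1 to 4 after 5 days on medium when 1 array was left out.

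As background, 794 probe sets were called for cambium against medium (540 to 2621 in the other settings) and 1443 for 5 days on medium against untreated (227 to 3539). In the latter 68.1% were higher, 49.5% with cyclic loess. Leaving out 1 array gave 406 to 717 calls for the former (406, 463, 489 and 526 without cambium replicate 2 and medium replicates 1, 2 and 3) and 518 to 5616 for the latter, with 5616 calls, 42.3% of them higher, without untreated replicate 1, 641 and 866 without untreated replicates 2 and 3, and 675 and 518 without medium replicates 1 and 2. The replicate block changed 1 call of the members, named above, and moved the count by over 1.5 times in 2 comparisons (untreated sheath against stem from 46 to 29, the 5-day tissue difference from 7 to 2). In 13 of 14 pairs of groups not every same-numbered pair of arrays had an r over 0.1. Untreated sheath and stem, with r of 0.597, -0.082 and 0.584, are among them. With so few arrays this rule cannot show that replicates are unpaired.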
